A study of Mus musculus with 30 samples.

Results

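Skeletal muscle of mice that lack Clpp was compared with skeletal muscle of wild-type littermates, using the 6 muscle samples of the 30 in the series, chosen by their titles as muscle knock out replicates 1 to 3 and muscle wild type replicates 1 to 3. The knockout mice (KO, genotype ClpP KO) and the wild-type littermates (WT) were both on a C57BL/6 background, and no further allele or treatment was named in the labels for either group. The series compared these genotypes in 5 tissues, brain, testis, liver, skeletal muscle and heart, with 3 samples per tissue and genotype. Total RNA of each sample was hybridised to 1 Affymetrix mouse expression array, and each value is a log2 level of 1 probe set after normalisation by the authors. The labels named neither the muscle that was dissected nor the age or sex of the mice. They also did not say that the replicates were separate animals, so the spread between replicates may be technical. In the main fit each p-value used a spread pooled over all 5 tissues, not that of the 6 muscle samples alone.

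ClpP is the proteolytic chamber of a protease of the mitochondrial matrix, where it works with the ATPase ClpX to unfold and degrade matrix proteins, and its loss is known to slow the assembly of mitochondrial ribosomes. Skeletal muscle is a mosaic of slow, oxidative fibres and fast, more glycolytic fibres, which build the same sarcomere from different copies of myosin, troponin and calcium pump genes. In cells with damaged mitochondria, released mitochondrial nucleic acids can be sensed as if they were viral, which starts interferon signalling, and amino acid or protein stress can start the integrated stress response through the transcription factor ATF4.

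Clpp (Entrez-matched gene on chromosome 17) was measured at 3.99, 3.41 and 3.55 on the 3 KO muscle arrays, against 8.25, 8.57 and 8.61 on the 3 WT muscle arrays. The groups lay far apart, and the KO values were close to the median of each muscle array, 3.25 to 3.28, so the log2 change of -4.82 ± 0.19 (SE, n = 3 per genotype, limma adjusted p = 1.13e-14) is a lower bound of the loss. Of the 20 measured genes nearest to Clpp, 10 on each side, 0 were called in muscle by limma and 3 had an unadjusted p below 0.05. Over all of chromosome 17, 12 of 785 genes were called (1.53%), against 1.54% of all genes.

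WT replicate 1 stood apart most, and KO replicate 1 held liver transcripts. On WT replicate 1 the protamines Prm2 and Prm1, which pack sperm DNA, stood at 8.36 and 8.11, where the other 5 muscle arrays held Prm2 between 2.69 and 2.90 and Prm1 between 2.93 and 3.26. The transition protein Tnp1 stood at 7.18 on that array and the sperm lactate dehydrogenase Ldhc at 6.98. The median of the 21 measured sperm genes was 5.27 there and between 2.90 and 3.08 on the other arrays. Some of the 21 were not raised there, among them Akap3 at 2.89 and Izumo1 at 3.09. In WT testis Prm1 averaged 13.35 ± 0.14 (SD, n = 3). On WT replicate 1, 90 genes lay at least 1 above all other muscle arrays, and 88 of them were at least 2 higher in WT testis than in KO muscle. None of the 90 was called between genotypes in muscle by limma. The other muscle arrays had between 5 and 24 such genes. Between KO and WT the 21 sperm genes had a median change of -0.49. Of these, 9 had an unadjusted p below 0.05 by limma, against 12.8% of all genes. On KO replicate 1 albumin, Alb, stood at 7.30, where the other 5 arrays held it between 2.81 and 3.78, and the apolipoproteins Apoa1 and Apoa2 stood at 4.32 and 3.98, where the others reached at most 3.14 and 3.19. Of 12 hepatocyte markers 0 was called by limma, with a median change of 0.15. Without KO replicate 1 the total of called genes below was 125. Some of the counts that changed without WT replicate 1 are given beside the results.

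Of 17097 genes, 263 were called in muscle at a limma adjusted p below 0.05 (1.54%), of which 133 were higher in KO muscle (0.778%) and 130 lower (0.76%). The fit used all 30 arrays, and an unadjusted p below 0.05 was reached by 2182 genes. Changes of at least 1 on the log2 scale, a doubling or a halving, were reached by 51 of the rises and 21 of the falls. On 256 of the 263 called genes the KO and WT arrays did not overlap, against 19.4% of all genes. In 5446 genes the mean reached 6 in either genotype, and 119 of these were called (2.19%). Taken over every gene, the changes had a median of -0.0024, and over the brighter genes of -0.037. The split of rises and falls moved with the scaling, to 178 rises and 76 falls after quantile normalisation and to 118 rises and 151 falls after median centring, which shifted the median change of all genes to 0.0126 and -0.0215. With the 6 muscle arrays fitted alone 15 genes were called, 11 rises and 4 falls, and without WT replicate 1 it was 156, of which 123 were among the 263.

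The largest rises in KO muscle were in genes of slow fibres, covering the thick filament, the thin filament and the calcium pump. Of 14 measured genes of slow and oxidative fibres 10 rose and none fell, where 0.778% of all genes rose, and the median change of the 14 was 2.06. Without WT replicate 1 the count of rises was 9. The KO arrays lay close together and the WT arrays spread widely. The median member stood at least 1.82 above its WT mean on each of the 3 KO arrays, and at 0.12, -0.40 and -0.19 on the 3 WT arrays.

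Among the thick filament genes Myh7, the slow myosin heavy chain, had log2 levels of 10.65, 10.27 and 10.32 in KO muscle, against 5.79, 4.08 and 7.81 in WT muscle. Its change was 4.52 ± 0.48 (SE, limma adjusted p = 1.97e-06). All KO arrays lay above all WT arrays, while the WT arrays spread over more than 3 units. Myl2, the slow regulatory light chain, had 11.94, 11.80 and 11.59 in KO muscle and 10.69, 5.89 and 9.19 in WT muscle, a change of 3.19 ± 0.59. WT replicate 2 was the low array for both genes, and without it the change of Myl2 was 1.84. Myl3, the slow essential light chain, rose by 1.81 ± 0.21, and Myom3, an M-band protein in the slow and oxidative list, by 2.31 ± 0.35. The WT arrays of Myom3 stood at 7.42, 6.03 and 5.04, lowest on WT replicate 3.

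The slow troponins, which couple calcium to contraction on the thin filament, had the same pattern. Tnnc1, troponin C of slow and cardiac muscle, had 10.87, 10.45 and 10.65 in KO muscle, against 5.74, 3.91 and 8.10 in WT muscle. Tnni1, the slow inhibitory subunit, had 10.18, 9.18 and 9.97 in KO muscle and 5.29, 3.42 and 6.53 in WT muscle. Tnnt1, the slow tropomyosin-binding subunit, had 10.82, 10.41 and 10.71 in KO muscle and 7.26, 4.51 and 8.03 in WT muscle. For each of the 3 subunits WT replicate 2 was lowest and WT replicate 3 highest of the WT arrays, and no KO array overlapped them. Their changes were 4.74 ± 0.52, 4.70 ± 0.44 and 4.05 ± 0.56 in the same order.

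Atp2a2, the slow calcium pump of the sarcoplasmic reticulum, rose by 2.32 ± 0.29, with KO arrays at 11.04, 11.10 and 11.26 and WT arrays at 9.61, 7.51 and 9.31. Myoz2, a Z-disc protein of slow fibres, rose by 1.49 ± 0.22, and Ankrd2, an ankyrin repeat protein of slow fibres, by 1.11 ± 0.24. The remaining 4 members, Csrp3 at 1.39, Casq2 at 0.96, Tpm3 at 0.38 and Hspb7 at 0.23, did not pass the test and their groups overlapped. The size of these changes depended on which WT array was present. Without WT replicate 2 the change of Tnnc1 was 3.73 and without WT replicate 3 it was 5.83. For Tnni1 the same range was 3.87 to 5.42 and for Myh7 3.62 to 5.48, and for Tnnt1 3.002 to 4.76. Without WT replicate 1 Myl2 moved to 4.23 and Myom3 to 2.94, and without WT replicate 2 Atp2a2 moved to 1.67. The call of Ankrd2 was lost without KO replicate 1 or 3 or WT replicate 1 or 3, while Tnnc1, Tnni1, Myh7, Tnnt1, Myl2, Atp2a2, Myom3 and Myl3 kept theirs without each array in turn.

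**Figure D1:**
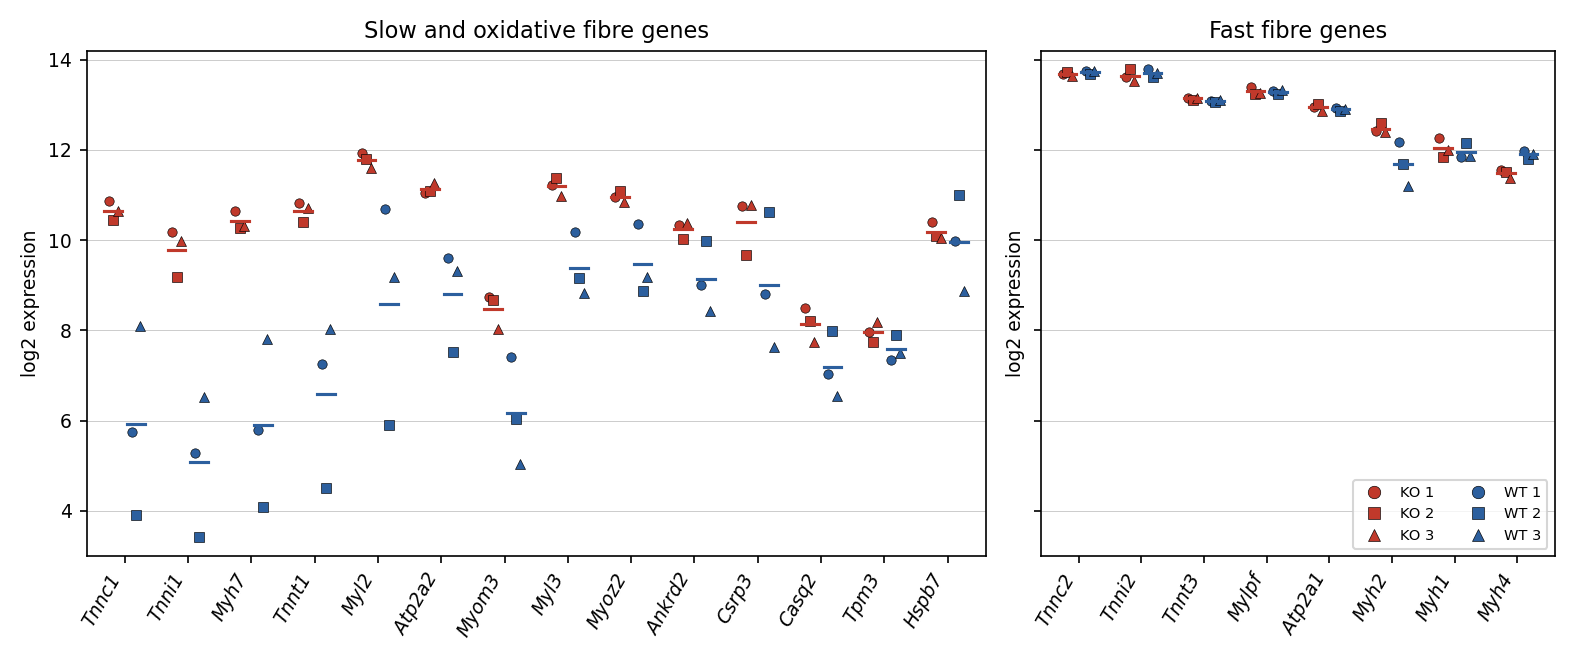
Log2 expression of slow and oxidative fibre genes (left) and of fast fibre genes (right) on each muscle array, KO in red and WT in blue, with a symbol per replicate and a bar at each group mean. The KO points of Myh7 lie between 10.27 and 10.65 and its WT points between 4.08 and 7.81, while Tnnc2 and Tnni2 of fast fibres lie near the top of the scale in both genotypes.

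Because the spread of each gene was pooled over all tissues, it did not follow the wide WT muscle spread of these genes. In a fit of the 6 muscle arrays alone 0 of the 14 slow genes was called, with limma adjusted p = 0.0871 for Tnni1, 0.13 for Myh7 and Myl3, 0.14 for Tnnc1, 0.153 for Tnnt1, 0.168 for Atp2a2 and 0.306 for Myl2, at the same log2 changes. Some genes that mark the position of a muscle in the body also differed between WT arrays. Tbx1, a transcription factor of head muscle development, stood at 8.08, 6.84 and 6.73 in KO muscle and at 6.94, 9.36 and 5.55 in WT muscle. Hoxd8 was 6.50 and Hoxd9 4.63 on WT replicate 2, and 8.38 and 8.71, and 6.70 and 6.56, on the other WT arrays. Hoxc10 lay between 8.29 and 8.62 on all 6 arrays. Tbx15, a transcription factor of fast fibres, was the single one of 36 position genes that was called, at -0.43 ± 0.10 (limma adjusted p = 0.0244), with a call that was lost without 4 of the 6 arrays in turn. Whether the dissected muscle or the part of it contributed to the slow gene result was not tested, and in bulk tissue fewer cells of a type and less RNA per cell cannot be told apart.

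Fast fibre genes had 1 call. Of 15 measured genes of fast and glycolytic fibres 1 rose and none fell, with a median change of 0.04. The riser was Myh2, the myosin of fast oxidative fibres, with 12.42, 12.59 and 12.41 in KO muscle and 12.19, 11.70 and 11.21 in WT muscle (change 0.78 ± 0.16, limma adjusted p = 0.0109), and its call was lost without KO replicate 2 or WT replicate 3. Myh4, the myosin of the fastest fibres, had 11.55, 11.52 and 11.39 in KO muscle against 11.99, 11.80 and 11.92 in WT muscle. Its difference of -0.42 did not pass the test (limma adjusted p = 0.133). A second Myh4 probe set, brighter in muscle at 13.04 in KO and 13.12 in WT, differed by -0.08. Myh1, of intermediate fast fibres, differed by 0.09. Tnnc2 and Tnni2, troponins of fast fibres, averaged 13.68 and 13.65 in KO muscle and 13.73 and 13.71 in WT muscle. Both, and the median member of the list at 12.94 to 13.11, lay near the highest value on a muscle array, 13.79. A change in genes this bright may not have been measurable.

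The rest of the muscle fibre programme had few calls. None of 16 sarcomere genes shared by the fibre types was called, among them Acta1, skeletal actin, at -0.04, Ttn, titin, at -0.02, Actn2 at 0.42 and Des, desmin, at -0.06. Acta1 averaged 13.62 in KO muscle and 13.66 in WT muscle, also near the highest value, so a change may not have been measurable. None of 13 genes of calcium release and the T-tubule was called, with Ryr1, the calcium release channel, at -0.01. None of 16 atrophy and autophagy genes was called, and the muscle ubiquitin ligases Fbxo32 and Trim63 both differed by -0.22. Of 8 embryonic and neonatal fibre genes 1 rose, Actc1, the actin of heart and of developing muscle. Actc1 had 11.04, 10.28 and 11.43 in KO muscle and 7.33, 7.82 and 9.10 in WT muscle, with no overlap and a change of 2.83 ± 0.27 (limma adjusted p = 7.24e-07). Without WT replicate 1, Myh3, the embryonic myosin, was also called (1.37), as was Klf15, a transcription factor in the atrophy list (1.27), both named after their values were seen. Of 14 cardiomyocyte markers Actc1 was the 1 that rose, and the median change was 0.08. In 3 of the 14, all KO arrays lay above all WT arrays, against 9.36% of all genes, and 3 reached a mean of 6 in either genotype. The members Tnni3, Nppa and Myl7 averaged 2.78, 2.79 and 2.92 in KO muscle and 2.65, 3.06 and 2.85 in WT muscle, at or below the array medians.

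Of 12 satellite cell and regeneration genes 1 fell, Myf5, a transcription factor of muscle stem cells, by 0.39 at a level near the array median. Of 15 denervation and neuromuscular junction genes 1 was called, Runx1, a transcription factor induced in denervated fibres, at 0.66 ± 0.15. A second Runx1 probe set differed by -0.81 at an unadjusted p of 0.000354, so the direction of Runx1 is not settled. Among 10 stretch and ankyrin repeat genes Ankrd2 rose and Ankrd1, a stretch-induced repeat protein, fell. Ankrd1 had 3.15, 5.19 and 3.10 in KO muscle and 4.44, 8.56 and 5.85 in WT muscle, so that the groups overlapped, and its call (-2.47 ± 0.58, limma adjusted p = 0.0298) was lost without 4 of the arrays in turn. It moved to -1.33 without WT replicate 2 and to -3.39 without WT replicate 1, and beyond -3 without KO replicate 2.

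Interferon-stimulated genes were the other large group that rose in KO muscle. Of 33 measured genes of the type I interferon response 16 rose and none fell, with a median change of 0.59, where 0.778% of all genes rose. On 21 of the 33 all KO arrays lay above all WT arrays, against 9.36% of all genes. Without WT replicate 1 the count of rises was 12. Fitted on the muscle arrays alone 6 of the 33 were called, Ifit1, Ifit3, Usp18, Irf7, Ifit2 and Rsad2. As a group the 33 stood 0.64, 0.38 and 0.60 above the WT mean on the KO arrays and at -0.05, -0.02 and 0.04 on the WT arrays.

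The promoters of 4 of the rising genes, Ifit1, Ifit3, Rsad2 and Oas1g, are printed here because these genes rose together and hold a copy of the DNA element that interferon regulatory factors are known to bind. Each is the RefSeq sequence of GRCm38.p6 between 250 bases before and 50 bases after the gene start, 5′ to 3′ on the strand of the gene, in lower case with matches on either strand to GAAA, 2 bases of any kind and GAAA in capitals. Ifit1 is at chr19:34640639-34640938 on the + strand, Ifit3 at chr19:34583279-34583578 on the + strand, Rsad2 at chr12:26456403-26456702 on the − strand and Oas1g at chr5:120887564-120887863 on the − strand.
Ifit1: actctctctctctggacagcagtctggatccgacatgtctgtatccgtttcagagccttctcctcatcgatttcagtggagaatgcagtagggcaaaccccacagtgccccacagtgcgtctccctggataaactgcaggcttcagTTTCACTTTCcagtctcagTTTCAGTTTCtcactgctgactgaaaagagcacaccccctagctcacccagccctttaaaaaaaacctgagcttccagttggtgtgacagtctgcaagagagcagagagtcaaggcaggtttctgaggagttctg
Ifit3: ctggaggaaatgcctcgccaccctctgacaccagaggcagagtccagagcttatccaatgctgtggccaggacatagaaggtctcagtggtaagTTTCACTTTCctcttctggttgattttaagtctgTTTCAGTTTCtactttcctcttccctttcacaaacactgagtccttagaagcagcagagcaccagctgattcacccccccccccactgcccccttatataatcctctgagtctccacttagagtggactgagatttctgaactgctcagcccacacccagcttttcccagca
Rsad2: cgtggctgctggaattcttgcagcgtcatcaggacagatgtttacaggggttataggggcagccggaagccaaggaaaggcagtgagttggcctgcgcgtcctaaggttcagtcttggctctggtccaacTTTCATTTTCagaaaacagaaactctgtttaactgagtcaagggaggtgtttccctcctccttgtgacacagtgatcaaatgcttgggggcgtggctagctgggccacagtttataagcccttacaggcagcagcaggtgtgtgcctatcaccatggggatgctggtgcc
Oas1g: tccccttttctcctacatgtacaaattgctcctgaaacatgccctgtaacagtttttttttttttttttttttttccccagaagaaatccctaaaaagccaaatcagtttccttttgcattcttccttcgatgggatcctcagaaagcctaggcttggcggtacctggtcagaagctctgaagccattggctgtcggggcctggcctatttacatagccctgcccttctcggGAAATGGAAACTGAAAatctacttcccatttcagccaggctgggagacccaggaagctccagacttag
Ifit1 and Ifit3 each held 2 matches, Rsad2 1, and Oas1g 2 that overlap each other.

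The motif was found in 3.44% of the 32851 promoter windows and in 3.59% of the 13605 measured genes that have one. Of 21 type I interferon genes with a promoter sequence 10 held it (47.6%), 6 of the 11 that rose in muscle and 4 of the 10 that did not. In the list of interferon-gamma and GTPase genes 9 of 13 held it, and in the slow fibre list 0 of 13. The core of the element known for the muscle factor MEF2, searched on both strands as CTA, 4 bases of any kind and TAG, was found in 1 of the 13 slow fibre promoters (7.69%) and in 4.1% of measured genes. A match describes these letters in this window and is not evidence of binding.

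Ifit1, which blocks translation of viral RNA, had 5.34, 5.29 and 5.76 in KO muscle and 3.26, 3.18 and 3.24 in WT muscle. The WT values were at the array median, so the change of 2.23 ± 0.19 (limma adjusted p = 8.38e-08) is a lower bound. Ifit3 of the same family had 7.87, 7.25 and 7.56 in KO muscle and 5.57, 5.75 and 5.47 in WT muscle (1.96 ± 0.23), and Ifit2 rose by 1.31 ± 0.17, also from WT values near the array median. Usp18, which removes ISG15 and damps interferon signalling, had 5.63, 4.86 and 5.43 in KO muscle against 3.40, 3.29 and 3.60 in WT muscle (1.88 ± 0.19), and the changes of Ifit2 and Usp18 are lower bounds too. In each of these genes the groups were separated by more than the spread within either one.

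Irf7, the transcription factor that amplifies type I interferon, had 5.14, 5.16 and 5.04 in KO muscle and 3.72, 3.76 and 3.91 in WT muscle (1.32 ± 0.20). Rsad2, viperin, had 7.54, 7.31 and 7.36 in KO muscle and 6.43, 6.03 and 6.05 in WT muscle (1.24 ± 0.16). Rtp4, an interferon-induced receptor chaperone, rose by 1.49 ± 0.19. Oas1g, an oligoadenylate synthetase with near-identical copies that its probes may not separate, had 5.40, 5.62 and 6.00 in KO muscle and 3.84, 4.05 and 4.62 in WT muscle. These 8 genes, Ifit1, Ifit3, Usp18, Oas1g, Rtp4, Irf7, Ifit2 and Rsad2, kept their calls without each array in turn. The innate sensor Ifih1, which detects long double-stranded RNA, was the 1 of 13 sensor genes that rose, by 1.06 ± 0.21, with a call lost without KO replicate 1 or 3. Among the genes not called were the interferon signal transducers Irf9 at 0.23 and Stat2 at 0.04, and Mx1 at 0.04 and Mx2 at -0.03.

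**Figure D2:**
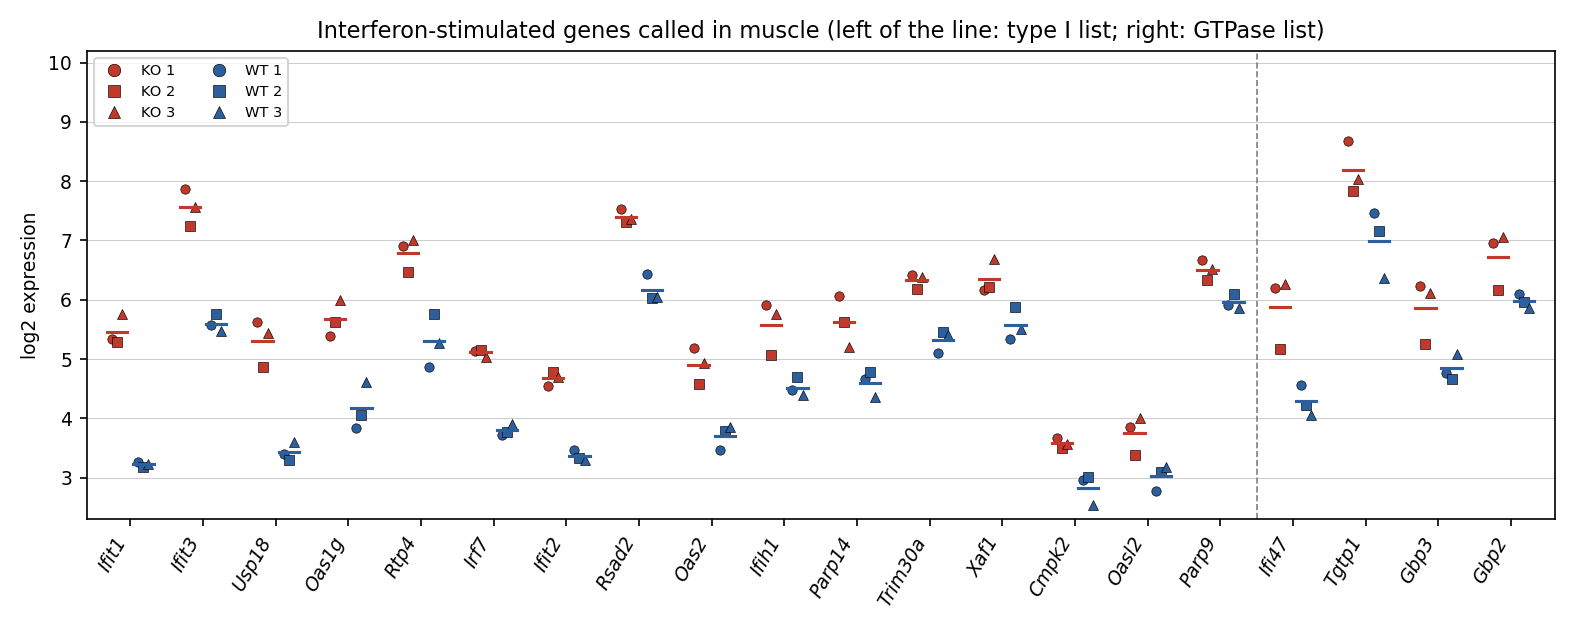
Log2 expression on each muscle array of the 16 called type I interferon genes (left of the dashed line) and of the 4 called GTPase genes (right), KO in red and WT in blue, with a symbol per replicate and a bar at each group mean. All KO points of each gene lie above all its WT points, and KO replicate 2 is the lowest KO point of Ifi47, Tgtp1, Gbp3 and Gbp2.

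In the list of GTPases and other targets of interferon-gamma 4 of 16 members were higher in KO muscle and none lower, where 0.778% of all genes rose and 0.76% fell, with a median change of 0.73. They were Ifi47 (1.59 ± 0.30), Tgtp1 (1.19 ± 0.29), Gbp3 (1.02 ± 0.22) and Gbp2 (0.75 ± 0.19), GTPases that attack membranes around intracellular pathogens, and Tgtp1 has a near-identical copy. The KO arrays differed among themselves, with the list at 1.18, 0.19 and 0.58 above the WT mean, so KO replicate 2 was lowest. The call of Ifi47 held without each array in turn, those of the other 3 did not, 0 of the 16 was called on the muscle arrays alone and without WT replicate 1, 2 rose and 1 fell. The fall was that of Ciita, the activator of class II genes, at -0.53 without that array and -0.32 with it. None of 12 genes of MHC class I antigen presentation was called by limma, although 7 had all KO arrays above all WT arrays, against 9.36% of all genes, and 7 an unadjusted p below 0.05, against 12.8% of all genes. Among them H2-K1, a class I heavy chain, differed by 0.51, and Psmb9, a subunit of the immunoproteasome, by 0.85. The 7 class II genes, markers of antigen presenting cells, had a median change of 0.20 with 0 called, and -0.0075 with Ciita called lower without WT replicate 1. The 22 macrophage markers had a median of 0.05 with 0 called.

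Set against the same genotypes in heart, 6 type I interferon genes had a smaller measured change in muscle. Over all genes 372 were called in heart (2.18%, with 1.11% up and 1.07% down), 413 in liver (2.42%, with 0.912% up and 1.5% down) and 71 in brain (0.415%, with 0.234% up and 0.181% down). Of the 33 type I genes 19 rose in KO heart, 16 in KO liver and 14 in KO brain, and of the 16 GTPase genes 9, 2 and 7. Of the 33 type I genes 6 had a change in muscle below that in heart by limma, where 0.38% of all genes did, and 0 had a larger one. They included Ifi27, a mitochondrial membrane protein induced by interferon. Ifi27 had 8.81, 8.66 and 8.87 in KO muscle against 8.36, 8.44 and 8.46 in WT muscle (0.36 ± 0.12, adjusted p = 0.162), while it changed by 2.69 in heart, 1.55 in brain and 0.92 in liver. The difference for Ifi27 between muscle and heart was -2.33 (limma adjusted p = 1.16e-08). For Usp18 the difference was -2.19, for Ifit1 -1.63 and for Irf7 -1.31, all called. The WT muscle values of these 3 genes lay near the array median, so their muscle changes are lower bounds. In WT heart Usp18 averaged 3.87, Ifit1 4.11 and Irf7 4.51, low as well, so their heart changes may also be lower bounds. The true differences may be smaller or larger in size than these values, which does not touch Ifi27. For Rtp4 the difference was 0.04 and for Rsad2 0.21, not called. Of the 16 GTPase genes 0 differed between muscle and heart.

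The listed genes of the integrated stress response had no call in muscle and many in heart. Of 21 measured target genes of ATF4 and related factors 0 was called in muscle, with a median change of 0.04 and 1 unadjusted p below 0.05, whereas 11 rose in KO heart, where 1.11% of all genes rose. For 9 of the 21 the change in muscle was below that in heart by the test of the difference (0.38% of all genes). Asns, asparagine synthetase, stood at 3.17, 3.60 and 3.90 in KO muscle and 4.12, 3.68 and 3.79 in WT muscle, while it averaged 8.05 in KO heart and 3.85 in WT heart. The muscle values overlapped and the difference between tissues was -4.50 (limma adjusted p = 0.000313). Atf5, a transcription factor of the mitochondrial stress response, changed by 0.38 in muscle and 2.44 in heart (difference -2.06), Trib3, a target of ATF4, by 0.07 and 2.22 (difference -2.15), and Phgdh, the first enzyme of serine synthesis, by -0.10 and 2.71 (difference -2.81). Atf4 itself averaged 10.21 ± 0.03 in KO muscle and 10.33 ± 0.14 in WT muscle (SD, n = 3 each). Fgf21, a hormone that stressed muscle can release, was not called in muscle at 0.25 ± 0.28, near the array median.

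Mitochondrial gene lists had few calls in KO muscle. Of 73 nuclear subunits of oxidative phosphorylation 0 was called and 0 had an unadjusted p below 0.05, with changes between -0.14 and 0.34 and a median of 0.03. Of 77 mitochondrial ribosomal protein genes 1 rose, Mrpl4, at 0.38 ± 0.10 with a call lost without 5 of the arrays in turn, and 8 had an unadjusted p below 0.05, a share near the 12.8% of all genes. None of 20 tricarboxylic acid cycle genes was called, among them Idh2, mitochondrial isocitrate dehydrogenase, at 0.77 (adjusted p = 0.0984), which was called without WT replicate 1 (1.04, adjusted p = 0.0217), and none of 19 genes of mitochondrial DNA upkeep and transcription, with Tfam, which packs mitochondrial DNA, at -0.04. A second, dimmer Tfam probe set had 4.67 in KO muscle and 5.14 in WT muscle, a difference of -0.47 (unadjusted p from limma 0.00229). Apart from Clpp itself, none of 16 mitochondrial protease genes was called, and none of 11 matrix chaperone genes, with the cochaperonin Hspe1 at 0.23. Ucp3, a mitochondrial carrier of muscle, was the 1 of 24 fatty acid oxidation genes that fell, with 6.04, 6.66 and 7.03 in KO muscle against 7.63, 7.64 and 7.25 in WT muscle. Its change of -0.93 ± 0.24 (limma adjusted p = 0.0482) was lost without 5 of the 6 arrays in turn.

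Of 25 glycolysis and glycogen genes 1 rose, Ldhb, the lactate dehydrogenase subunit of oxidative tissue. Ldhb had 10.76, 11.23 and 10.37 in KO muscle and 10.24, 9.64 and 9.49 in WT muscle, a change of 0.99 ± 0.18 without overlap. Without WT replicate 1 the glucose transporter Slc2a1 of this list was called too (0.92), named after its values were seen. Of 19 antioxidant genes 3 rose and 2 fell, where 0.778% of all genes rose and 0.76% fell. The risers were the glutathione transferases Gstm2 (1.11 ± 0.20), Gstm1 (0.70 ± 0.17) and Gsta4 (0.66 ± 0.14), and those that fell were Mgst1, a microsomal glutathione transferase, by 0.93 ± 0.22 and Srxn1, which repairs peroxiredoxins, by 0.72 ± 0.18. The Gstm2 call held without each array in turn and the other 4 did not. Without WT replicate 1 the list had 1 rise and 1 fall. The second probe set of Mgst1 read 2.57 in KO muscle and 2.40 in WT muscle, below the array medians, and gave no second measurement of the gene.

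Other rises among the largest 15 were outside these lists. Plet1os, an antisense transcript of Plet1, had 8.17, 7.43 and 7.97 in KO muscle and 5.78, 5.04 and 6.14 in WT muscle (2.20 ± 0.22, limma adjusted p = 7.68e-07). Fgfbp1, a carrier of fibroblast growth factors, had 6.57, 6.53 and 7.45 in KO muscle against 4.53, 4.59 and 5.06 in WT muscle (2.12 ± 0.17). Both were separated by more than 1 unit, and both kept their calls without each array in turn. Selenbp1, a methanethiol oxidase, had 7.95, 8.01 and 7.57 in KO muscle and 6.28, 6.00 and 6.19 in WT muscle (1.69 ± 0.17), and its near-identical neighbour Selenbp2, named after its values were seen, rose by 1.56 ± 0.28, so the probes may not separate the 2. Ppp1r1a, an inhibitor of protein phosphatase 1, rose by 1.73 ± 0.35, a call lost without WT replicate 3. Retnla, a secreted protein of alternatively activated macrophages and fat, rose by 1.61 ± 0.34, a call lost without KO replicate 3 or WT replicate 1.

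Among the largest falls Klf10, a transcription factor induced by TGF-beta, had 4.06, 4.36 and 4.53 in KO muscle and 6.84, 6.29 and 6.44 in WT muscle (-2.21 ± 0.36, limma adjusted p = 0.00122). It was the 1 of 20 immediate early and KLF genes that fell. Bcl2, which protects from cell death at the mitochondrial membrane, had 4.35, 4.51 and 4.26 in KO muscle against 6.39, 6.21 and 6.23 in WT muscle (-1.90 ± 0.19, limma adjusted p = 1.00e-06). Of 16 apoptosis genes Bcl2 and Casp9, an initiator caspase (-0.67 ± 0.15), fell. The Casp9 call was lost without 4 of the 6 arrays in turn, and a second Casp9 probe set near the array median differed by 0.06. A second Bcl2 probe set, at 3.71 in KO muscle and 3.40 in WT muscle, differed by 0.31 (unadjusted p from limma 0.0682). Klf10 and Bcl2 showed tight groups that did not overlap, and both were also called on the muscle arrays alone. Eda2r, a receptor of the tumour necrosis factor family and target of p53, fell by 1.27 ± 0.19, with KO arrays at 5.51, 5.91 and 5.35 and WT arrays at 7.48, 6.39 and 6.73, and was the 1 of 13 p53 target genes that fell. Slc38a2, an amino acid transporter, had 9.37, 9.45 and 9.39 in KO muscle and 10.45, 10.00 and 10.27 in WT muscle (-0.84 ± 0.15), while its other probe sets differed by -0.36 and, near the array median, by 0.20. The calls of Klf10, Bcl2, Eda2r and Slc38a2 held without each array in turn.

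The other falls of this size were each lost without 3 to 6 of the arrays in turn. They were Aplnr, the apelin receptor of endothelial cells (-1.54), Il1r1, the interleukin 1 receptor (-1.30), Rai14 (-1.17), Tmem37 (-1.05), Rnf125, a ubiquitin ligase (-0.89), Ccnl2, a cyclin of splicing (-0.88), Rgcc (-0.83), and the Mgst1 and Ucp3 named above. Aplnr was the 1 of 17 endothelial markers that fell, and it differed by -0.16 when probe sets that may be shared were left out.

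Hp, haptoglobin, which fat and liver secrete to bind free haemoglobin, fell along with uneven fat markers. Hp had 5.17, 4.51 and 6.79 in KO muscle and 7.66, 8.26 and 8.01 in WT muscle (-2.49 ± 0.61, limma adjusted p = 0.0365), and its call was lost without 5 of the 6 arrays in turn. Adipoq, adiponectin of fat cells, had 5.87, 3.29 and 9.44 in KO muscle and 8.05, 8.67 and 9.63 in WT muscle, and KO replicate 3 was highest of the KO arrays for both genes. Lep, leptin of fat cells, fell by 1.71 ± 0.21, with KO arrays at 2.48, 2.31 and 2.97 and WT arrays at 4.33, 4.91 and 3.65. The KO values lay below the array medians, so this is a lower bound of the fall. Lep was the 1 of 10 lipid droplet and adipocyte markers that fell. As a group the 10 stood at -0.29, -0.54 and 0.17 on the KO arrays and at -0.10, 0.00 and 0.23 on the WT arrays. The part of fat in these falls was not tested.

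**Figure D3:**
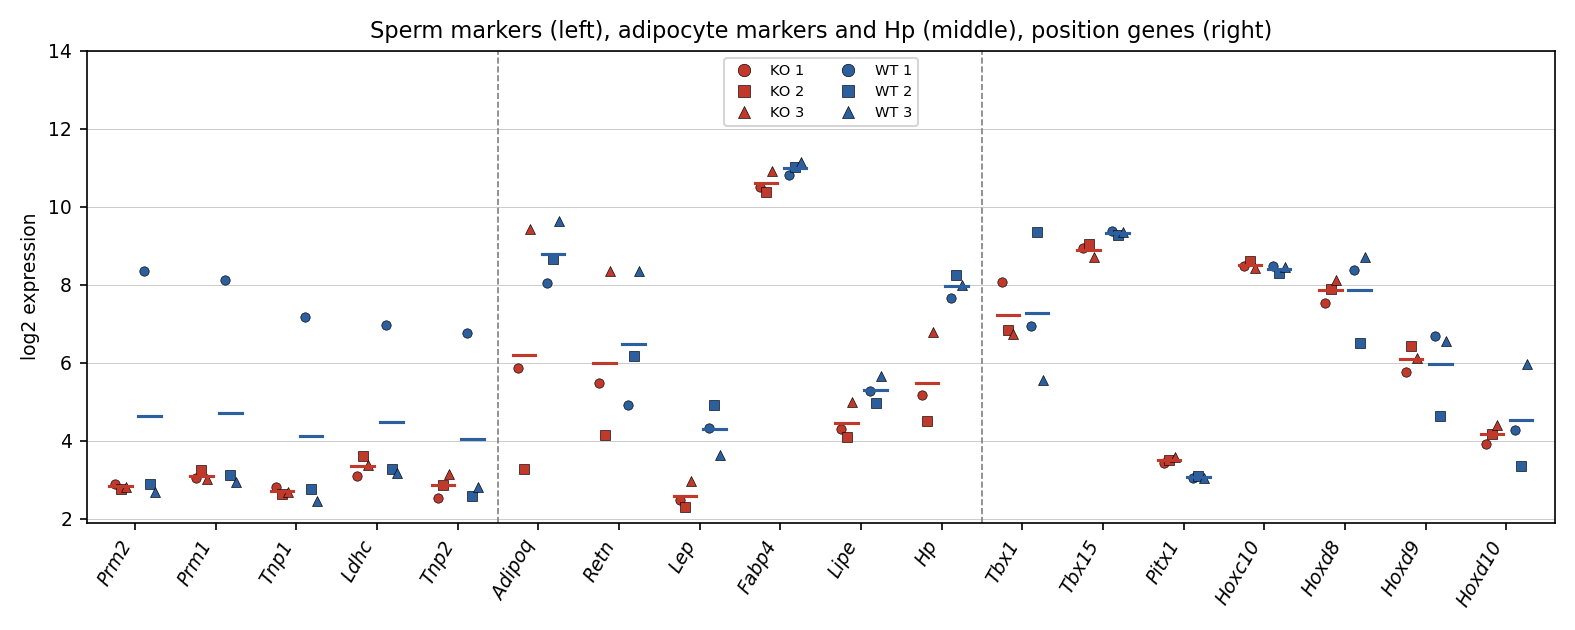
Log2 expression on each muscle array of sperm markers (left), adipocyte markers with Hp (middle) and position genes (right), KO in red and WT in blue, with a symbol per replicate and a bar at each group mean. The sperm markers shown are high on WT replicate 1 and near 3 on the other arrays. Adipoq spreads between 3.29 and 9.44 in KO muscle, and Tbx1 between 5.55 and 9.36 in WT muscle.

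Markers of other cells gave few calls. None of 17 fibroblast and matrix genes, 9 tendon genes, 11 Schwann cell and nerve genes, 9 neutrophil genes, 21 sperm genes or 12 keratinocyte genes was called. Of 8 smooth muscle and pericyte genes Lmod1, leiomodin of smooth muscle, rose by 0.90, and of 14 lymphocyte genes Cd2 by 0.41 at a level near the array median, both with calls lost without any of the 6 arrays. The 12 skeletal muscle markers had a median change of -0.02 with 0 called. Ckm, muscle creatine kinase, averaged 13.22 in KO muscle and 13.27 in WT muscle, so these defining markers were present on all arrays. Ckm lay near the highest value on a muscle array, 13.79, where a change may not have been measurable. RNA integrity, read as 3′ minus 5′ signal of Gapdh controls, was 0.29 ± 0.04 in KO muscle and 0.26 ± 0.03 in WT muscle (SD, n = 3 each), and read on the actin controls it was 0.33 ± 0.14 in KO muscle and 0.16 ± 0.20 in WT muscle.

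**Figure D4:**
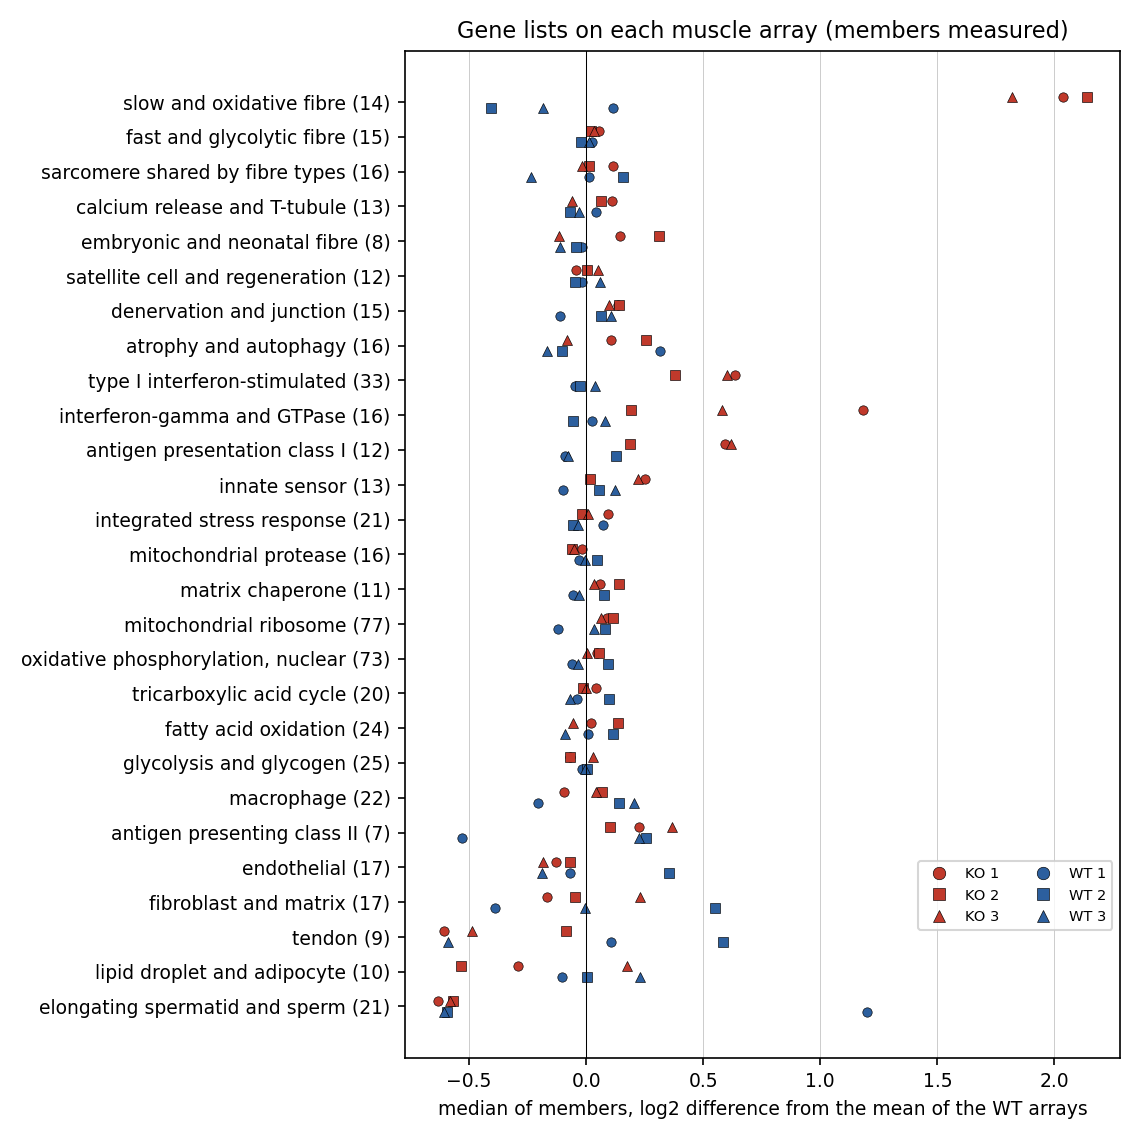
Median of the members of each gene list on each muscle array, as the log2 difference from the mean of the WT arrays, KO in red and WT in blue, with a symbol per replicate and the number of measured members in brackets. The slow and oxidative fibre list lies at or above 1.82 on the KO arrays and the sperm list stands out on WT replicate 1.

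Most slow fibre genes had a larger change in muscle than the mean change of liver, brain and heart. The change in muscle was set against the mean of the changes in liver, brain and heart, and 79 of 17097 genes differed (0.462%), 52 upwards (0.304%) and 27 downwards (0.158%). Of the 79, 58 were also called within muscle. Of the 14 slow genes 9 were among the upward differences, led by Tnnc1 at 4.66 ± 0.60, Myh7 at 4.57 ± 0.55, Tnni1 at 4.39 ± 0.50 and Tnnt1 at 4.13 ± 0.64. In heart, which uses many of these genes at a high level in both genotypes, Myh7 averaged 13.20 in KO and 13.26 in WT, and 0 of the 14 was called. Myh7, Myl2, Myl3 and Atp2a2 averaged over 13 in both genotypes in heart, close to the highest value on a muscle array, 13.79. A rise there may not have been measurable. The same limit may hold for Tnnc1, at 12.45 in KO heart and 12.46 in WT heart, and for Actc1 below, at 12.94 and 12.84. Tnni1, Tnnt1 and Myom3 had room to rise in heart, at 3.67, 6.26 and 3.67 in KO heart and 2.92, 6.45 and 3.84 in WT heart, and their differences from heart were called, at 3.95, 4.24 and 2.48. Against heart alone 8 of the 14 had a larger change in muscle, where 0.474% of all genes did. Myl2 was not among them (3.22, limma adjusted p = 0.0633). Whether liver and brain could show a change in the slow genes was not tested. Of the 33 type I interferon genes 0 differed upwards and 1, Ifi27, downwards.

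Actc1 (2.80 ± 0.32), Plet1os (2.54 ± 0.25), Fgfbp1 (2.05 ± 0.20), Selenbp1 (1.69 ± 0.20) and Ldhb (0.95 ± 0.21) also had a larger change in muscle by limma, and Klf10 (-2.35 ± 0.42), Bcl2 (-1.89 ± 0.22), Lep (-1.77 ± 0.24), Eda2r (-1.19 ± 0.22), Slc38a2 (-1.10 ± 0.17) and Ccnl2 (-1.04 ± 0.21) a lower one. Of the 263 genes called in muscle 26 were called in heart with the same sign. Hp (-2.90), Retnla (1.31), Aplnr (-1.11) and Ucp3 (-0.67) were not called in this test of the difference from the other tissues. For Hp the limma adjusted p was 0.0595, and its difference from heart alone, -3.88, was called (limma adjusted p = 0.023). Part of that difference was a change of 1.40 in heart, which was not called.

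**Figure D5:**
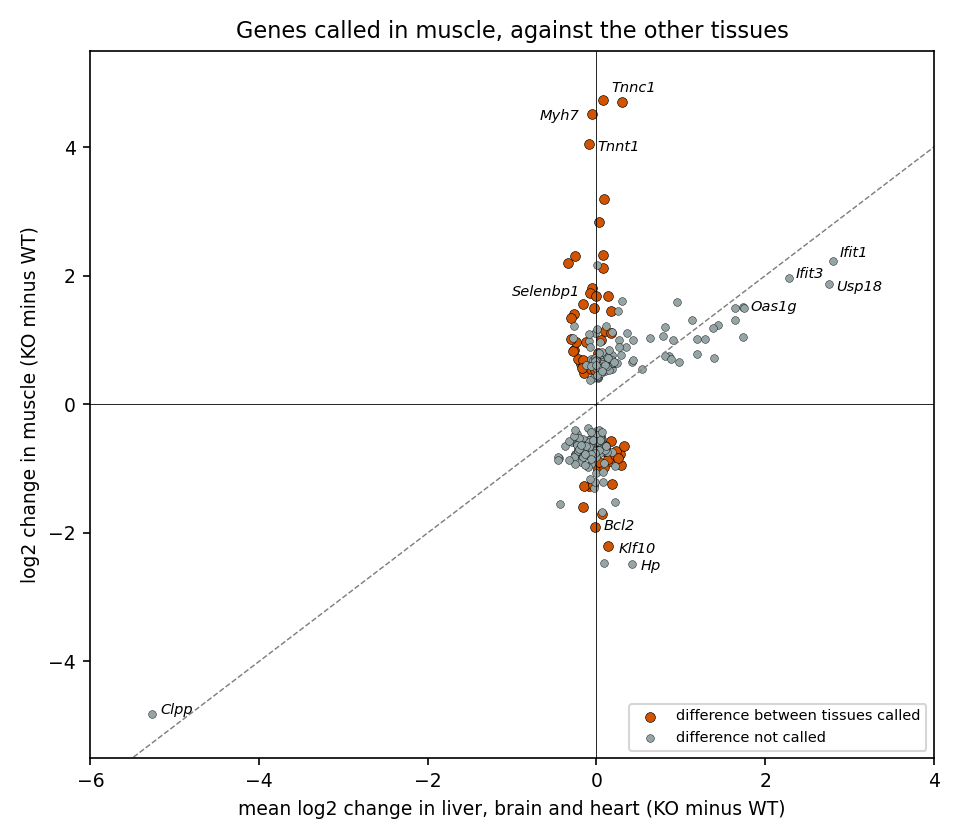
Log2 change (KO minus WT) of each gene called in muscle on the vertical axis against its mean log2 change in liver, brain and heart on the horizontal axis, with genes whose difference between tissues was called in orange and the dashed line at equal change. Slow fibre genes stand high on the vertical axis near 0 on the horizontal axis, interferon genes such as Ifit1 and Usp18 lie to the right, and Clpp lies at the lower left near the line.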

How the data were processed

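The deposited table holds log2 expression values of 45141 probe sets on 30 Affymetrix arrays, made by the authors with RMA in R 2.14.0, per the submitters' processing notes. Whether all arrays were processed together is not given in the sources used here, and no further normalisation was applied. A single gene symbol was attached to 28898 probe sets, several to 551 and none to 15692, of which 104 were controls. Where a gene had several probe sets, the brightest by mean of all arrays stood for it, which gave 17097 genes, 16937 of them matched by Entrez identifier to GRCm38.p6. Promoter sequences came from a RefSeq table of that build.

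A limma 3.58.1 model (R 4.3.3) was fitted to all 30 arrays as 10 group means with 20 residual degrees of freedom. Contrasts were KO minus WT in muscle, this change minus the mean change of liver, brain and heart, and this change minus that of heart. Tests were two-sided with Benjamini-Hochberg adjustment over all genes, called below 0.05. Errors of changes are SE and those of group means SD, with 3 arrays per group, so precision is limited by how few arrays there are. An exact permutation test of 3 against 3 arrays cannot go below 0.1.

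The muscle samples, gene lists and alternatives were chosen with earlier results of these data known. Named genes were Clpp, the top 15 rises and top 15 falls by size, taken from called genes with a mean of at least 6 in either muscle genotype and no overlap between the groups (62 rises, 1 with a clone name left out, and 54 falls were eligible), up to 8 called members of each list or up to 4 in list order where none was called, and the 5 largest differences from the other tissues each way. Further genes are named as members of a list. A list is described by its called members and median change, with no set test.

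Same-numbered KO and WT arrays correlated in their deviations from the group means at 0.034, 0.062 and 0.243. Arrays of unlike number correlated between -0.216 and 0.151. The numbers were not used as pairs in the main fit, and whether they pair the samples was not settled. The limma model was tested on simulated data, with 17097 genes, for the muscle comparison. It recovered 30%, 80%, 100% and 100% of changes of 0.5, 1, 2 and 3 on the log2 scale, with 12 false calls and 0 of wrong sign. The simulation gave each gene the same spread in all groups, so it does not measure false calls where the spread differs between groups.

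Alternatives were a fit of the muscle arrays alone, a replicate block, a random block, array weights, a trended robust prior, quantile normalisation, median centring, a minimum level, other choices of probe set, other reference tissues, and each array left out in turn. Testing the 15588 probe sets with no gene was added after the data had been seen.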

Additional observations from a re-analysis of the deposited data

Results flagged for a closer look

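The change between KO and WT in muscle differed from the mean change of liver, brain and heart, by limma's test of the difference, for 21 of the named genes. Members of the slow and oxidative fibre list had positive differences on the log2 scale of 4.66 for Tnnc1, 4.57 for Myh7, 4.39 for Tnni1, 4.13 for Tnnt1, 3.10 for Myl2, 2.57 for Myom3, 2.25 for Atp2a2 and 1.86 for Myl3. Other positive differences were 2.80 for Actc1, 2.54 for Plet1os, 2.05 for Fgfbp1, 1.80 for Ppp1r1a, 1.69 for Selenbp1 and 0.95 for Ldhb. Negative differences were -2.35 for Klf10, -1.89 for Bcl2, -1.77 for Lep, -1.36 for Ifi27, -1.19 for Eda2r, -1.10 for Slc38a2 and -1.04 for Ccnl2. Among these, Ifi27 is the one gene that was not called within muscle.

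Probe sets with no gene name were tested apart from the genes. Of 15588 such probe sets 123 were called in muscle (0.789%), 65 higher and 58 lower in KO, a signal outside the genes described above.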

How the results depend on the processing

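Of the 58 called genes among those named, 58 kept their calls with array weights and with the probe set highest in muscle, 56 with median centring, 53 with a trended robust prior, 51 with quantile normalisation and 10 on the muscle arrays alone. Of the 263 genes called in muscle, 15 remained on the muscle arrays alone, where 0 of the 14 slow genes, 6 of the type I interferon genes and 0 of the GTPase genes were called. With genes limited to a mean of at least 6 the total was 138 and the type I count 6. Leaving out each array in turn gave totals of 125 to 277, slow fibre counts of 9 to 12, type I counts of 11 to 15 and GTPase counts of 1 to 6. Without probe sets that may be shared the GTPase count was 2. With the replicate number as a block, which was not used in the main fit, 137 genes were called. Of these, 123 were among the 263, with 9 slow and 13 type I genes. A random block gave 263, the same genes. The 79 genes that differed from the other tissues became 192 with array weights, 2707 with testis among the other tissues, 146 against heart alone, and 55 to 124 without each array in turn. The direction turned for Runx1, to -0.049 (limma adjusted p = 0.885) with the mean of all probe sets, and for Mgst1, to 0.17 without shared probe sets, where the probe set left reads below the array medians. The cause was not tested.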

Other observations

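Enzymes that break down branched-chain amino acids were put together as a list after the values of some of them had been seen, so their counts are a description. Of 19 measured members 1 rose in KO muscle and none fell, with a median change of 0.30, and on 12 of them all KO arrays lay above all WT arrays, against 9.36% of all genes. The riser was Bckdhb, a subunit of the dehydrogenase that commits these amino acids to breakdown, with 8.26 ± 0.19 in KO muscle and 7.64 ± 0.03 in WT muscle (SD, n = 3 each) and no overlap (change 0.63 ± 0.14, limma adjusted p = 0.0193). For 4 of the 19 the change in muscle lay above the mean change of liver, brain and heart by limma, where 0.304% of all genes did. They included Dbt, the core of that dehydrogenase, with a difference of 0.92 ± 0.17, and Ppm1k, the phosphatase that activates it, with a difference of 1.11 ± 0.20. Neither Dbt nor Ppm1k was called within muscle. The list had a median change of -0.27 in heart and -0.165 in liver, with 2 members called lower in each, and 0.02 in brain. Falls in the other tissues can therefore make up part of such a difference.

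Another 4 enzymes were picked singly after their values were seen, with no list or count behind them. Gcat, which splits the product of threonine oxidation, had 5.95, 6.33 and 5.93 in KO muscle and 5.31, 5.01 and 4.99 in WT muscle (0.97 ± 0.18). Gcdh, of lysine breakdown, rose by 0.68 ± 0.15, Gpt, alanine transaminase, by 0.84 ± 0.19, and Oxct1, which lets tissue burn ketone bodies, by 0.54 ± 0.11. All 4 had no overlap between KO and WT arrays and were called by limma in muscle and in the difference from liver, brain and heart.

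Arpp21, Mettl21e, Fmr1 and Tst were also among the 15 genes called on the 6 muscle arrays alone. Arpp21, a regulated phosphoprotein, rose by 1.41 ± 0.20 and Mettl21e, a methyltransferase of muscle, by 1.14 ± 0.12. Fmr1, an RNA-binding protein of translation control, had 4.78, 4.58 and 4.56 in KO muscle and 6.02, 6.04 and 5.67 in WT muscle and fell by 1.27 ± 0.12. Tst, a mitochondrial sulphur transferase, rose by 0.89 ± 0.15. These genes, too, were named after their values were seen.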
